A study of Mus musculus with 6 samples.

Results

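Crh encodes corticotropin-releasing hormone (CRH), and its RNA was followed here through every cell type, epithelial cluster and tissue section of a mouse uterus study, as 1 gene of the 30828 counted in sections and 24077 in single cells. The gene was picked because single cells from uteri exposed to diethylstilbestrol (DES) after birth held many Crh transcripts where control cells held almost none, so its single-cell levels are given as a description with no test. CRH is a peptide hormone best known from the hypothalamus, where it starts the stress response by driving pituitary release of adrenocorticotropic hormone and, through it, glucocorticoid from the adrenal gland. It signals through CRHR1 and CRHR2, receptors that raise cyclic AMP. The related urocortins share these receptors, and CRH-binding protein holds the peptide inactive. CRH is cut from a larger precursor by prohormone convertases, and it is also made outside the brain, in reproductive and other peripheral tissues.

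Uteri were taken from 12-month-old CD-1 mice injected under the skin on days 1 to 5 of life with corn oil (CO) or with DES, a synthetic estrogen, at 1 mg/kg/day. According to the study's methods, mice given DES at this dose and age commonly carry uterine adenocarcinoma and remain in persistent estrus, and the CO mice were chosen in estrus. Single-cell RNA was counted in 1 CO library made from 2 pooled mice and 1 DES library made from 4 pooled mice, and spatial RNA in 2 CO and 2 DES frozen sections, each section from 1 mouse. The DES blocks were examined for adenocarcinoma and all blocks were cored to the area of interest before sectioning, and the CO B section had a tissue fold. The study used mainly 1 section a group, because of this fold and because spot clusters were hard to tell apart in DES B.

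Counts were given for 32387 CO cells and 16312 DES cells, at a median of 6779 and 10153.5 unique molecular identifiers (UMIs, which count original RNA molecules) per cell. The deposited annotation gave 2583 CO and 5255 DES cells as epithelial, with median depths of 23458 and 21900 UMIs. Almost no DES cells were called stromal (1) or endothelial (5), so these types could not be read in the DES library. The libraries shared 180 cell barcodes, 3 of them between epithelial cells. The 4 sections held 9117099 to 12506177 UMIs over 1357 to 1834 spots. All 11 epithelial marker genes were detected in the DES epithelial cells, where they summed to 5115 CPM (UMIs of a gene per 1000000 UMIs) against 7880 in CO epithelial cells. In the tables Crh is ENSMUSG00000049796.4, a gene of 2 exons on the minus strand of chromosome 3 from 19693401 to 19695396 in GRCm38, with no other annotated gene overlapping it.

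To place Crh among cell types, its UMIs were summed over the cells of each type and divided by all UMIs of those cells (as CPM), with exact Poisson intervals at 95% that cover counting error only. DES epithelial cells held 23647 Crh UMIs, a level of 134.2 CPM (132.5 to 135.9). CO epithelial cells held 3 Crh UMIs, a level of 0.038 CPM (0.008 to 0.111). The ratio of the DES to the CO level was 3526, with a counting interval of 1206 to 17098 that is wide because the CO count is 3. Among the 3105 genes at 50 CPM or more in the epithelial cells of either library, Crh had the highest such ratio, followed by the basal keratin Krt5 at 584. Of these genes, 0.580% were at least 10 times and 0.129% at least 100 times higher in the DES library. In DES epithelial cells Crh ranked 909 of 24077 genes by CPM, so it was not a trace transcript.

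The whole CO library held 7 Crh UMIs, each in a different cell, 3 of them epithelial and 4 without a cell type. One of the 7 cells carried a barcode that was also in the DES library, where the cell of that barcode held 54 Crh UMIs. All 9 other CO cell types held no Crh UMI. For the largest of them, 6866 mesothelial cells, this allowed a share of cells with a UMI of up to 0.044%. CO stromal cells (1326) and endothelial cells (341) also held none. With 1 library for each treatment, no test between treatments was possible in single cells.

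Other DES cell types held Crh at low levels. DES mesothelial cells held 255 Crh UMIs in 3837 cells, a level of 3.95 CPM (3.48 to 4.46). Lymphocytes were at 12.1 CPM from 18 UMIs, myeloid cells at 7.84 CPM from 16 UMIs and Lyz2-high myeloid cells at 9.43 CPM from 21 UMIs. The 5 endothelial cells and the 1 stromal cell held none. Cells to which no type was given held 2687 UMIs, at 63.5 CPM.

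These low levels were set beside epithelial RNA, each summed over the cells of a type. For every 1000 UMIs of the 7 epithelial markers that are not keratins, DES epithelial cells held 51.1 Crh UMIs (50.4 to 51.7). The same ratio was 39.4 (34.6 to 44.6) in mesothelial cells, 49.3 (28.9 to 79.1) in lymphocytes, 54.6 in myeloid cells and 53.8 in Lyz2-high myeloid cells. In DES cells with no type the ratio was 40.6 (39.1 to 42.2). In lymphocytes the interval spanned the epithelial value, and in mesothelial cells and cells with no type it lay below that value. Where the Crh of these cells comes from was not tested. After each cell was thinned to 3000 UMIs so that depth was equal, 19.9% of DES epithelial cells (18.8 to 21.0%, 54 shallower cells left out) held a Crh UMI, and 1.85% of mesothelial cells did (1.45 to 2.33%, 55 left out). Without thinning the shares were 41.9% and 5.99%, at median depths of 21900 and 12329 UMIs. The mesothelial share was used as a reference level, and whether mesothelial cells make Crh was not tested. Lymphocytes, at 3.76% (1.64 to 7.27%), and myeloid and Lyz2-high myeloid cells, both at 2.29%, had wide intervals that span this reference. They rest on 8, 5 and 3 cells with a UMI, so Crh expression in these types is not read from the shares.

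**Figure D1:**
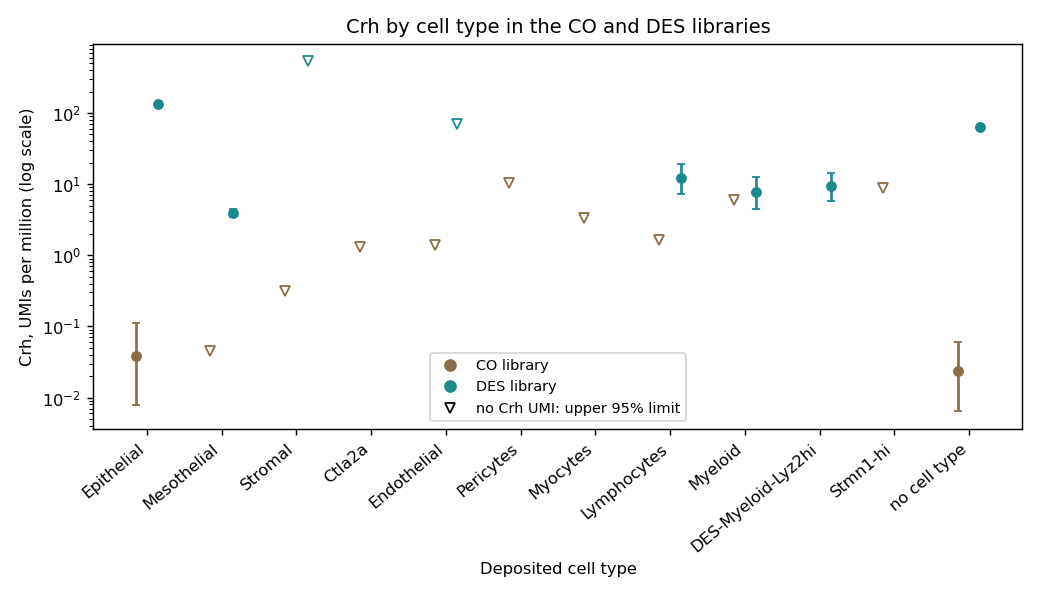
Crh level in each deposited cell type, in CPM on a log axis, for the CO library (brown) and the DES library (teal), with exact Poisson intervals at 95%. Open triangles are the upper limits for types with no Crh UMI, and the limit for DES stromal cells rests on 1 cell. DES epithelial cells sit at 134.2 and CO epithelial cells at 0.038 CPM.

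Crh was spread unevenly among DES epithelial cells. No Crh UMI was seen in 3054 of the 5255 cells (58.1%), and 563 cells held exactly 1. At the other end, 717 cells (13.6%) held 10 or more, and together they carried 79.8% of the Crh UMIs. The highest cell held 201 Crh UMIs among its 114694 UMIs. The 10% of cells with the most Crh held 70.4% of it. Many deeply sampled cells also held none, as 47.6% of the 2824 cells with at least 20000 UMIs had no Crh UMI. The cells with 10 or more were deeper, with a median of 47812 UMIs against 18238 in cells with none. At an equal depth of 3000 UMIs, the variance of Crh over the 4559 cells of the study's DES clusters that are deep enough was 3.07 times its mean, where the median of the genes with a UMI in at least 10% of clustered cells was 1.01. Of the 1448 such genes with a mean within 2-fold of that of Crh, 6 had a higher value.

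**Figure D2:**
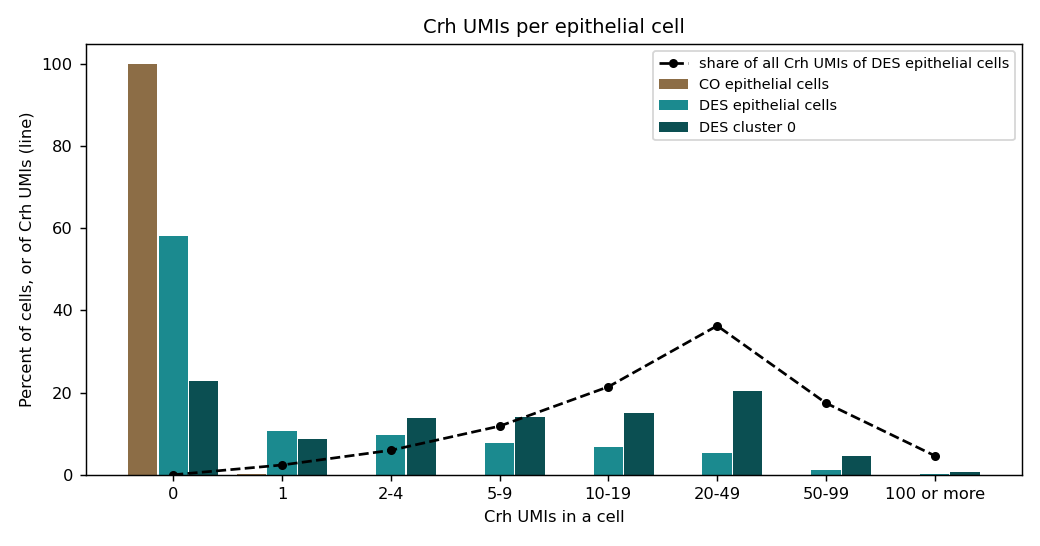
Percent of epithelial cells (bars) by the number of Crh UMIs in the cell, for CO epithelial cells, DES epithelial cells and DES cluster 0, with the share of all Crh UMIs of DES epithelial cells in each class as a line. Of DES epithelial cells, 58.1% hold none, and in cluster 0 22.9% hold none.

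Above 10000 UMIs the level of Crh changed little with depth, while the share of cells in which it was seen rose from 32.0% to 62.6%. DES epithelial cells with over 40000 UMIs were at 139.8 CPM (137.5 to 142.0), those with 20000 to 40000 at 124.3 (120.8 to 127.8) and those with 10000 to 20000 at 133.0 (128.9 to 137.2). Cells of 5000 to 10000 UMIs were lower, at 48.1 (39.8 to 57.7; 15.5% with a UMI), and the 129 cells under 5000 UMIs were higher, at 253.8 (207.4 to 307.5; 25.6% with a UMI).

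The study divided the DES epithelial cells that are not basal into 16 clusters. Because the clusters came from these counts, the order of Crh among them is a description. Cluster 0 was highest, at 433.9 CPM (425.1 to 442.8), and 77.1% of its 669 cells held a Crh UMI. It held 14.5% of the clustered cells and 39.3% of their Crh UMIs, at 4.35 times the level of all other clusters together, which stood at 99.7 CPM. Next came cluster 7 at 250.1 CPM, cluster 5 at 179.7, cluster 10 at 143.8 and cluster 9 at 128.4. Cluster 5 is the one the study proposed as cancer cells. Clusters 12, 3, 1, 6, 2, 14 and 4 followed between 107.1 and 80.1 CPM. A step separated these from the last 4, with cluster 8 at 28.6 CPM, cluster 15 at 16.7, cluster 11 at 11.5 and cluster 13 at 1.84 (0.74 to 3.79). Cluster 13 held 7 Crh UMIs in 123 cells of median depth 21701, each in a cell of its own.

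Of the 15 pairs of neighbours in this order, 7 had overlapping intervals. These were clusters 10 and 9, 12 and 3, 3 and 1, 6 and 2, 2 and 14, 14 and 4, and 15 and 11. The thinned share of cells with a Crh UMI ran from 51.9% in cluster 0 (48.1 to 55.8%) to 1.63% in cluster 13 (0.20 to 5.75%) and 1.23% in cluster 11 (0.15 to 4.39%). In cluster 9 this share was 29.5% (23.1 to 36.5%) and in cluster 10, just above it by level, 20.9% (14.3 to 29.0%), with intervals that overlap. In cluster 10, 37 of 166 cells were too shallow to be thinned, and in cluster 9 none was. Crh was uneven inside clusters too: at equal depth its variance was over 2 times its mean within clusters 0, 1, 2, 3, 4, 5, 7, 9 and 14.

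**Figure D3:**
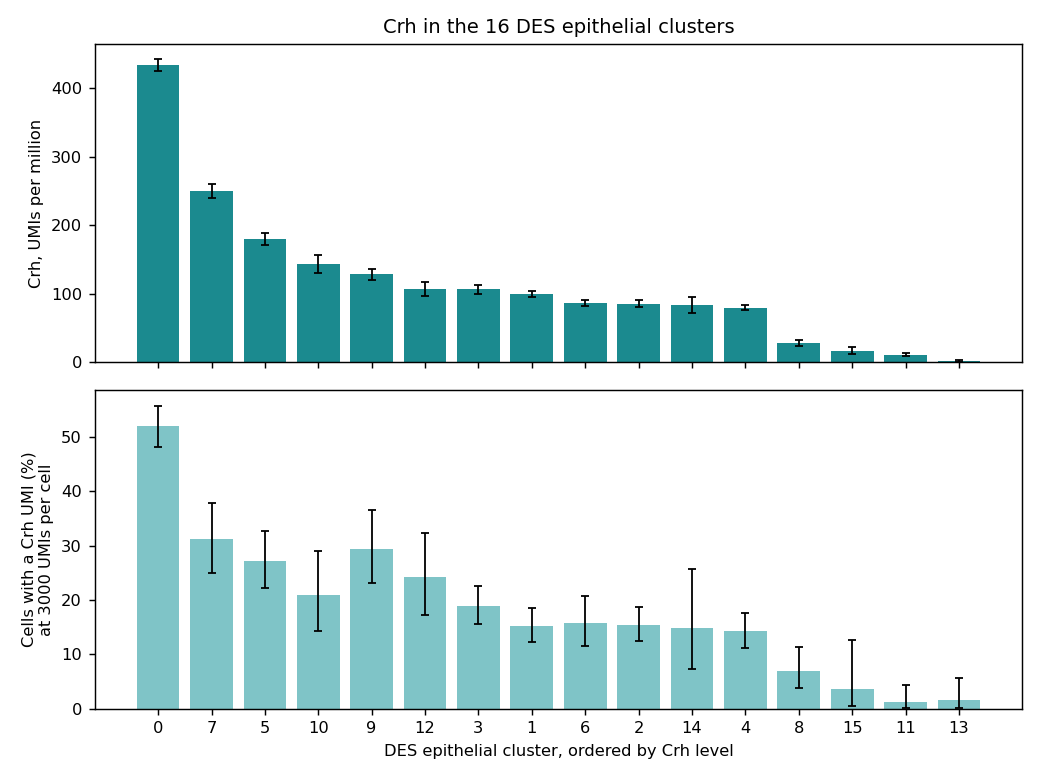
Crh in the 16 DES epithelial clusters, ordered by level. The upper bars give CPM with exact Poisson intervals, and the lower bars give the percent of cells with a Crh UMI at 3000 UMIs per cell with exact Clopper-Pearson intervals, both at 95%. Cluster 0 stands at 433.9 CPM and cluster 13 at 1.84.

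Basal cells held little Crh. These stratified epithelial cells, normally absent from the uterine horn, were taken as DES epithelial cells with more than 1 UMI of both the basal keratin Krt14 and Trp63, the transcription factor of stratified epithelium. The 483 such cells were at 24.8 CPM (21.8 to 28.1) and the 4772 other DES epithelial cells at 140.7 (138.9 to 142.6). At 3000 UMIs per cell a Crh UMI was held by 3.73% of basal cells (2.22 to 5.83%) and 21.5% of the others (20.3 to 22.7%). In the clustering made over both libraries, DES cells of clusters 8 and 11, which the study names basal, were at 12.0 and 17.6 CPM, and DES cells of cluster 9 at 3.67. The highest, cluster 2, was at 346.6 CPM.

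Crh was then set beside genes that the study used to tell DES epithelial populations apart, in the clustered cells at 3000 UMIs each. Cells with a UMI of Olfm4, a secreted glycoprotein of stem and tumor epithelium, were at 190.8 Crh CPM (163.5 to 221.3) and cells without at 138.8 (132.4 to 145.4). The level was 49.02 CPM (34.1 to 68.2) where the topoisomerase gene Top2a was seen against 147.4 where it was not, and 47.0 against 143.9 for Mki67. Cells with the Wnt ligand gene Wnt7a were at 117.7 against 147.2, and those with the homeobox gene En2 at 88.6 against 144.0. The gland factor Foxa2 (154.0 against 141.7), the DNA repair gene Rad51b (144.7 against 141.6) and Aldh1a1 (116.3 against 142.5) had overlapping counting intervals. These intervals cover counting error only, while Crh varied between cells by more than counting error, so no difference is read from whether they overlap.

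Genes whose levels ran most like Crh over the 4608 clustered DES cells were found by the Pearson correlation of log-scaled counts per 10000, among 10441 genes with a UMI in at least 10% of the cells. The correlations were weak and are given without a test. The median was 0.001 and 14 genes were above 0.2. The highest were Serpina1c, an alpha-1-antitrypsin gene (r = 0.34), the mitochondrial thiolase Acaa2 (0.31) and the homeobox factor Meis2 (0.31). Next were the retinaldehyde reductase Dhrs3 (0.27), the urothelial plaque gene Upk1a (0.27), the fatty acid transporter Slc27a2 (0.27), Serpina1a (0.27), the peroxide-reducing Gpx1 (0.25) and Trim2 (0.23). Med24, Krt5, Serpinb11, Tspan8 and Cyb5r3 were also among the first 15, from 0.22 to 0.20. All 15 kept a positive correlation within clusters (0.06 to 0.24) and at 3000 UMIs per cell (0.06 to 0.22), where the values were smaller. The 15 were picked in these same cells, so a positive sign there is no separate support. Acaa2 fell from 0.31 to 0.10 within clusters.

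The genes least like Crh were the interferon-induced Ifitm3 (r = -0.28), Ifitm1 (-0.25) and Ifitm2 (-0.21), the iron-binding Ltf, a known estrogen-responsive gene of the uterus (-0.28), and the lipogenic regulator Thrsp (-0.22). Both sets of genes were chosen by their correlation with Crh in these same cells, so the direction of the values that follow is a consequence of the choice. All 5 were lower in cells with 10 or more Crh UMIs than in cells with none, for example Ltf at 1612 against 2535 CPM and Thrsp at 31.8 against 70.4. Of the 15 most alike, 14 were higher in the cells with 10 or more, such as Upk1a at 117.7 against 36.5 CPM and Serpina1c at 583.2 against 213.4. Krt5 was the exception, at 124.2 against 234 CPM over all DES epithelial cells, where basal cells are included. The summed basal markers were 138.2 CPM in the cells with 10 or more Crh UMIs and 675.2 in cells with none.

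**Figure D4:**
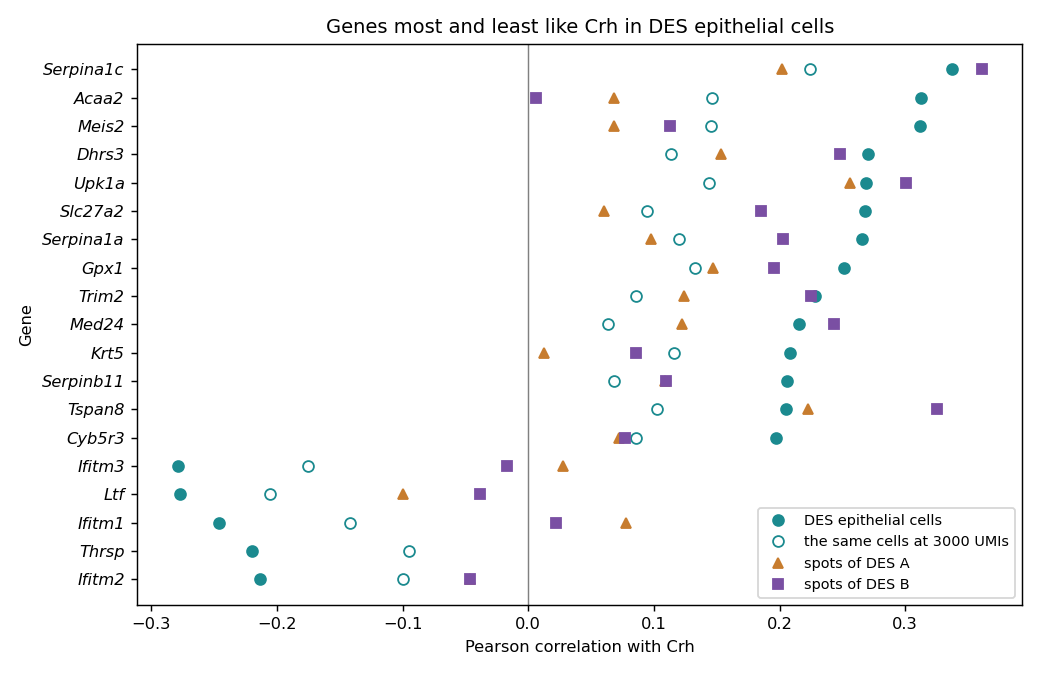
Pearson correlation with Crh for 14 of the 15 genes most like it and the 5 least like it, over DES epithelial cells (filled circles), the same cells at 3000 UMIs (open circles) and the spots of the DES A (triangles) and DES B (squares) sections. All 14 are above 0 in both sections, and 4 of the 5 were frequent enough in spots to be drawn there.

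The partners of Crh in the same pathway were scarce. In epithelial cells its receptor gene Crhr1 had 21 UMIs in the DES library and 0 in the CO library, and Crhr2 had 0 and 1. Crhbp, the binding protein, had 19 and 5 UMIs. The urocortin genes that share these receptors were low too, with Ucn at 0 in both libraries and Ucn2 at 64 UMIs (0.36 CPM) in DES and 2 in CO, and Ucn3 was not among the genes counted in cells. Of the 6 family members measured, Crh alone reached 10 CPM in either library.

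Of the 9 prohormone processing genes, 4 reached 10 CPM in the epithelial cells of either library and 2 in those of DES. The convertase Pcsk6 (3.34 CPM in DES and 22.3 in CO) and the chaperone Scg5 (0.66 and 16.2) reached it in CO and were lower in DES. The endocrine convertase genes Pcsk1 and Pcsk2 had 0 and 1 UMI in DES epithelial cells. Furin, the widely expressed convertase, was at 35.0 CPM in DES and 63.4 in CO cells, and Pam, which adds the C-terminal amide that active CRH carries, was at 337.2 and 330.8. In cells with 10 or more Crh UMIs these were 32.7 and 368.6 CPM, against 35.6 and 306.2 in cells with none. Carboxypeptidase E (Cpe) was at 9.74 CPM in DES and 1.07 in CO epithelial cells. Within DES it was lower in the cells with 10 or more Crh UMIs, at 2.25 against 15.9 CPM. The cells with none include basal cells and were shallower.

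Genes of neuroendocrine cells did not accompany Crh. Of 12 dense-core granule and neuroendocrine genes, 0 reached 10 CPM in the epithelial cells of either library. Chga, the granule protein gene, had 1 UMI in DES epithelial cells, the factor Insm1 had 1 and Snap25 had 0. Pomc, the precursor of adrenocorticotropic hormone, was at 1.03 CPM. Of 15 other peptide hormone genes measured, 0 reached 10 CPM, and Adcyap1 was the highest in DES cells at 1.70 CPM. Crh was therefore the only hypothalamic peptide gene of this list at such a level.

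Glucocorticoid genes and cyclic AMP genes were expressed, as 4 of 10 and 8 of 11 reached 10 CPM in DES epithelial cells and 5 of 10 and 10 of 11 did so in either library. The glucocorticoid receptor gene Nr3c1 was at 21.8 CPM in DES and 17.7 in CO epithelial cells, and its target Tsc22d3 at 46.2 and 21.6. The kinase gene Sgk1 was at 76.9 and 30.2 CPM. Other genes of the list were lower in DES, among them Hsd11b1, which regenerates active glucocorticoid (8.86 against 55.5 CPM), the phosphatase Dusp1 (29.1 against 86.7), Hsd11b2 (0.82 against 5.84) and Fkbp5 (1.30 against 1.95). Every gene of the cyclic AMP list was lower in DES, such as Fos (301.7 against 1132.7 CPM) and Junb (249.3 against 524.2). In cells with 10 or more Crh UMIs, Nr3c1 (22.1 CPM) and Tsc22d3 (44.3) were close to the values of cells with none (22.7 and 47.5). Sgk1 was higher in the cells with 10 or more, at 88.6 against 72.8 CPM. Dusp1 (10.5 against 40.5) and Hsd11b2 (0.37 against 1.04) were lower there. The immediate early gene Fos was also lower in these cells, at 131.5 against 412.0 CPM, and so was Atf3, at 17.5 against 169.8. Over the clustered cells, however, neither ran with Crh (r = -0.02 for Fos and -0.00068 for Atf3). Jun was also lower, at 127.9 against 454.2 CPM, and its r over the clustered cells was -0.07. As above, the cells with none include basal cells and were shallower.

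No measured neighbour within 500 kb of Crh on chromosome 3 came near its ratio between the libraries. The nearest protein-coding gene measured, the muscle gene Trim55, lies 0.98 kb away and had 2 UMIs in DES and 0 in CO epithelial cells. Dnajc5b, 82.5 kb away, had 43 and 23 UMIs. On the other side, the ceruloplasmin gene Cp was at 54.5 CPM in DES and 284.5 in CO cells, while Hps3 (14.2 and 5.76 CPM) and Hltf (24.9 and 15.9) were higher in the DES cells.

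The sections gave a look at Crh in other mice than those of the single-cell libraries. CO A held 0 Crh UMIs in 1433 spots and CO B held 0 in 1834 spots. DES A held 126 Crh UMIs in 85 of 1575 spots, a level of 13.8 CPM (11.5 to 16.5), with at most 4 in a spot. DES B held 797 in 264 of 1357 spots, a level of 80.7 CPM (75.2 to 86.5), with at most 25 in a spot. Both DES sections were above both CO sections, as were 43.8% of the 14098 genes tested, and DES B was 5.84 times DES A. Per 1000 UMIs of the epithelial markers, DES A held 2.35 Crh UMIs and DES B 12.6, so the gap between them was also seen relative to epithelial RNA. In sections, fewer cells that carry Crh and less Crh RNA per cell cannot be told apart.

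Against a floor of 3 UMIs over both CO sections, or 0.127 CPM, Crh was at least 108-fold higher in DES A and at least 633-fold higher in DES B. Among 1163 genes with a UMI in a DES section and none in either CO section, Crh had the most UMIs, 923, ahead of the homeobox gene Six3 with 205. This order rests on DES B (797 against 59), as in DES A Six3 had 146 UMIs and Crh 126. The sections were compared with the quasi-likelihood test of edgeR, with p-values adjusted by the Benjamini-Hochberg method over all genes tested. An adjusted p under 0.05 was called, as it was for 5.30% of genes (2.67% higher and 2.63% lower in DES). By edgeR Crh was not called in whole sections (fitted log2 fold change 11.88, adjusted p = 0.065, 2 sections against 2). This fitted value depends on the prior count, since CO is at 0. The edgeR adjusted p was 0.039 with no filter on low counts and the DESeq2 adjusted p was 0.00023, both under the threshold. With the scaling of DESeq2 in edgeR the adjusted p was 0.063. Of 8 alternatives in all, 4 left Crh uncalled. Without DES A the fitted log2 fold change was 12.68, in a fit with 1 DES section whose spread comes from the CO sections alone. With 0 UMIs in CO, Crh passed the filter on low counts only through the DES sections. Crh had also been picked for this direction in the single cells of other mice. An exact permutation test of 2 sections against 2 cannot go below 0.333.

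In epithelium-rich spots, the 15% of spots in each section with the highest summed score of 11 epithelial markers, Crh was higher in DES. CO A and CO B held 0 UMIs there in 215 and 275 spots, DES A held 57 in 236 spots (23.5 CPM, 17.8 to 30.5) and DES B held 224 in 204 spots (99.99 CPM, 87.3 to 114.0). The DES sections were at least 57.0-fold and at least 242-fold above the floor of the CO spots. In edgeR's quasi-likelihood test the fitted log2 fold change was 10.36, with an adjusted p of 0.042 (n = 2 against 2 sections). Here too Crh passed the filter only through the DES sections, and it had been picked for this direction in single cells. Of the 11569 genes tested there, 6.81% were called (4.26% higher and 2.55% lower), and in 48.1% both DES sections were above both CO sections. With the top 25% of spots the edgeR adjusted p was 0.055, which is not a call.

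Within the DES sections, Crh in epithelium-rich spots was set against all other spots. In DES A the levels were 23.5 and 10.3 CPM, a ratio of 2.28, and in DES B 99.99 and 75.003 CPM, a ratio of 1.33. The marker genes used to choose the spots differed by 1.72 and 1.71 times. The difference passed in edgeR's quasi-likelihood test with the section as a term (log2 fold change 0.53 ± 0.15 SE, adjusted p = 0.015, n = 2 sections), where 23.6% of 12764 genes were called (9.52% higher). It depended on how the spots were chosen. With the top 10% of spots the log2 fold change was 0.27 (edgeR adjusted p = 0.33). The sections differed there, with DES A at 27.2 against 10.9 CPM and DES B at 79.5 against 80.9. With the deposited spot cluster of highest epithelial score in each section, the log2 fold change turned to -4.44. No p is given for it, as these clusters were formed from these same counts. With DESeq2 the log2 fold change was 0.68 (adjusted p = 0.18), and without the section as a term it was 0.44 (edgeR adjusted p = 0.85).

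Crh was concentrated in a few clusters of spots. Each section had 10 deposited clusters, which came from these counts and are described without a test. In DES A, cluster 2 held 119 of the 126 Crh UMIs, at 48.99 CPM, and cluster 1 held 0, although the mean epithelial scores of the pair were 18.7 and 18.8. In DES B, cluster 2 held 586 of the 797 UMIs, at 187.9 CPM with a score of 19.9, while cluster 7 held 10, at 6.75 CPM, with the highest score of the section, 20.7. Cluster 1 of DES B held 146 UMIs at 55.3 CPM and cluster 3 held 43 at 39.1 CPM. Clusters with similar epithelial scores thus held very different amounts of Crh.

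The clusters of highest Crh and of highest epithelial score also differed in other genes named here. Krt14 was at 1442 CPM in cluster 2 of DES A and 7030 in cluster 1, and at 839.1 CPM in cluster 2 of DES B and 3762 in cluster 7. Olfm4 was lower in cluster 2 of each section, at 776.4 against 2531 CPM in DES A and 1352 against 2604 in DES B. Wnt7a was higher in it, at 130.5 against 17.3 CPM and 53.9 against 12.1. Serpina1c was also higher, at 433.0 against 221.4 CPM and 908.3 against 495.9, but in clusters 1 and 3 of DES B, which hold Crh too, it was at 474.1 and 398.1 CPM. These clusters were picked for their Crh after its values were seen, and no test was made.

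**Figure D5:**
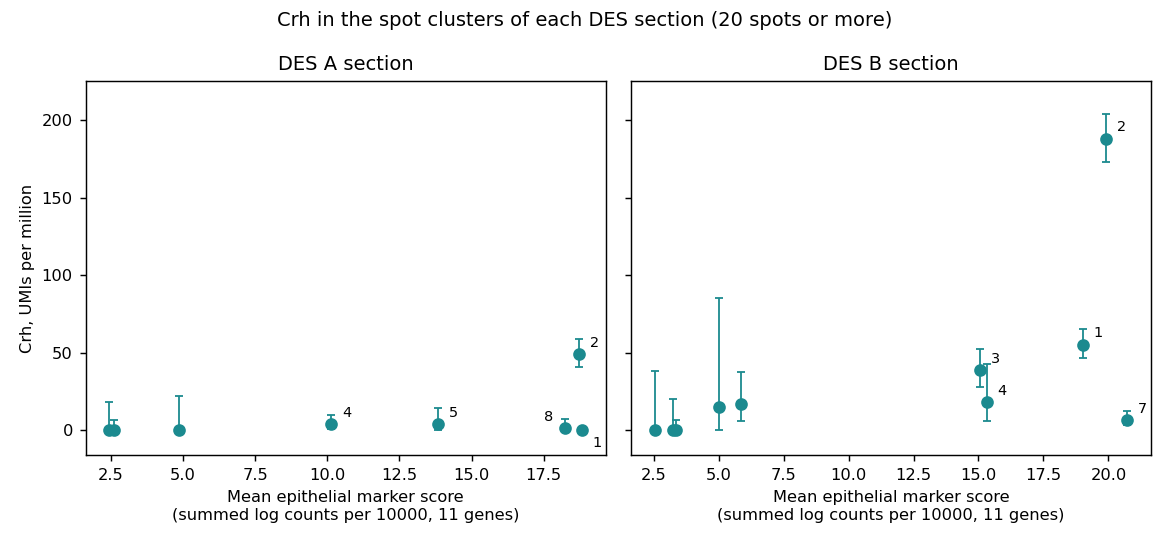
Crh level of each deposited spot cluster (CPM, with exact Poisson intervals at 95%) against its mean epithelial marker score, for clusters of at least 20 spots in DES A and DES B. Clusters scoring over 8 carry their number, and cluster 2 is highest in Crh in both sections, while clusters 1 of DES A and 7 of DES B have the highest scores and 0 and 6.75 CPM.

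Spots gave a second view of the genes that ran with Crh, with depth and the mix of cells in a spot shared by every gene. All 15 genes most like Crh in cells had a positive correlation over the spots of DES A and of DES B, as did 71.2% and 82.0% of all genes tested there, and 14 of them were above the median gene (0.02 and 0.05) in each section. Krt5 in DES A (0.01) and Acaa2 in DES B (0.01) were below it. The correlation was above 0.1 for 9 of the 15 in DES A and 12 in DES B, beside 3.93% and 17.6% of all genes. Upk1a had rank 3 of 9864 genes in DES A (r = 0.26) and Serpina1c rank 6 of 10240 in DES B (0.36). The genes most like Crh in spots were the claudin Cldn10 in DES A (0.32) and the water channel Aqp8 in DES B (0.43), where Cldn10 was second (0.42). Rad51b was among the first 5 in both (0.29 and 0.38), while in single cells its correlation with Crh was 0.03. Wnt7a had rank 7 in DES A (0.24), where in cells it was -0.09.

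In whole sections 3 of the 15 genes most like Crh were called higher in DES and 0 lower, beside 2.67% and 2.63% of all genes. These were Upk1a, Dhrs3 and Serpinb11. Upk1a was at 0.80 and 0.91 CPM in CO A and CO B and at 193.0 and 206.7 CPM in DES A and DES B (log2 fold change 7.65, edgeR adjusted p = 0.0079). These groups do not overlap, and 43.8% of all genes tested also had both DES sections above both CO sections. Serpina1c was at 133.6 and 792.4 CPM in the CO sections and 252.2 and 553.3 in the DES sections, which overlap. The median log2 fold change of the 15 was 0.68, where that of all genes was -0.01. The 15 were chosen in DES epithelial cells, where 13 of them had a higher CPM than in CO epithelial cells. Their calls and median are therefore no separate support for a difference between treatments. In epithelium-rich spots the same 3 were called higher and Med24 was called lower, beside 4.26% and 2.55% of all genes. In epithelial cells Med24 went the other way, at 252.3 CPM in DES and 106.6 in CO. Of the 11 population genes, Olfm4 and Foxa2 were called higher in DES in whole sections (as were 2.67% of all genes tested), and En2 as well in epithelium-rich spots (4.26% of all genes tested).

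The receptors and relatives of Crh were also scarce in sections, where Ucn2 alone of them passed 10 CPM. Crhbp, Ucn and Ucn3 had 0 UMIs in all 4 sections. Crhr1 had 0 in both CO sections, 5 UMIs in DES A and 4 in DES B. Crhr2 had 5 and 9 in CO and 1 and 2 in DES. Ucn2 was at 0.88 and 2.36 CPM in CO and 11.5 and 7.09 in DES, which do not overlap, and it was not called (edgeR adjusted p = 0.085). Both DES sections were above both CO sections in 43.8% of all genes tested. Pcsk1 had 2, 1, 0 and 1 UMIs in CO A, CO B, DES A and DES B. Of the 10 glucocorticoid genes, 9 could be tested in whole sections, where Sgk1 was called higher in DES (log2 fold change 1.65 ± 0.18 SE, edgeR adjusted p = 0.022). Its levels were 62.9 and 74.9 CPM in CO and 238.9 and 257.9 in DES. Of the prohormone processing genes 6 were tested and Pcsk6 was called lower, and of the cyclic AMP genes 10 were tested and Junb was called higher. In epithelial cells Junb went the other way, at 249.3 CPM in DES and 524.2 in CO. Among all genes 2.67% were called higher and 2.63% lower, so single calls in lists of this size are near the background. In epithelium-rich spots neither Sgk1 nor Junb was called, and Pcsk6 and Hsd11b2 were called lower. There 4.26% of all genes were called higher and 2.55% lower.

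Markers of other cells also differed between the sections and their part in these results was not tested. Basal markers summed to 3.36 and 160 CPM in CO A and CO B and to 9526 and 5644 in DES A and DES B. Smooth muscle markers summed to 13345 and 14168 CPM in CO and 3077 and 3458 in DES, and stromal markers to 2452 and 2453 in CO and 1140 and 762 in DES. Leukocyte markers summed to 180 and 404 CPM in CO and 1612 and 838 in DES, and mast cell markers to 7.28 and 12.4 in CO and 29.4 and 21.5 in DES. The epithelial list, 11 genes all detected, ran from 3389 CPM in CO B and 5635 in CO A to 5885 in DES A and 6412 in DES B.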

How the data were processed

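Mouse uterus was profiled by droplet single-cell RNA-seq (1 CO and 1 DES library) and by spatial RNA-seq (2 CO and 2 DES sections). The authors made raw UMI counts per gene and cell or spot with Cell Ranger 3.0.1 and Space Ranger 1.2.2 on mm10 (versions from the submitters' processing notes), removed doublets, looked for swapped barcodes, and deposited the counts with cell types and clusters. The deposited metadata also hold the fraction of reads that repeat a UMI, which was not used for any result. The gene and the gene lists were chosen with earlier results of these data known.

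Counts were summed over cells or spots and given as CPM. Intervals at 95% are exact Poisson for levels and exact Clopper-Pearson for shares, and a count of 0 was read against a floor of 3 UMIs. Cells were thinned to 3000 UMIs with a fixed seed. Genes named as like Crh are the 15 highest and 5 lowest correlations over the DES clusters, 1 of which is counted but not reported here by name. Named otherwise are the members of the pathway, marker and population lists. Section counts were tested with edgeR 4.0.16 (quasi-likelihood, TMM, filterByExpr) in R 4.3.3, after the test was checked on simulated counts, with DESeq2 1.42.0 as an alternative. The alternatives were other scalings, filters, thinning depths and spot choices, each section left out in turn, and the section letter as a block. Each section came from 1 mouse, so p-values between treatments rest on the spread between 2 mice a group. Those between spots within the DES sections rest on how the difference varied between 2 mice. The 350 cells named in the metadata that have no counts were left out.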

Additional observations from a re-analysis of the deposited data

How the results depend on the processing

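In whole sections the fitted log2 fold change of Crh was 11.88 (edgeR adjusted p = 0.065). It went past the threshold with DESeq2 (11.37, adjusted p = 0.00023) and with no filter on low counts (11.89, edgeR adjusted p = 0.039). With the scaling of DESeq2 in edgeR it stayed uncalled (11.88, edgeR adjusted p = 0.063). Of the 8 alternatives, 4 left Crh uncalled and 4 called it. With a section left out its group has 1 section, which is assumed to vary like the other group. Over the sections left out in turn the fitted log2 fold change ran from 10.05 to 12.68. In epithelium-rich spots only the top 25% of spots lost the call among the 10 alternatives that could be fitted (10.997, edgeR adjusted p = 0.055), and with sections left out it ran from 9.002 to 11.10. For the cluster of highest score Crh was below the filter and had no test there. Between epithelium-rich and other spots of the DES sections the log2 fold change was not called with DESeq2 (0.68), without the replicate block by section (0.44) or in the top 10% of spots (0.27), and it reversed to -4.44 with the cluster of highest score. The cause of these changes was not tested.

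The section letters are shared by CO and DES, and the labels do not say whether they pair mice. The deviations of same-lettered sections did not run together (correlations of -0.03 and 0.05), which cannot exclude a pairing. The letter block is given only as an alternative. With the letter as a replicate block the whole-section value was 11.82 (edgeR adjusted p = 0.022, under the threshold), with 527 genes called in place of 747, and in epithelium-rich spots 1219 in place of 788. Genes called in whole sections were 3 without DES B, 14 without DES A, 2336 without CO B and 2819 without CO A, against 747 with all. In epithelium-rich spots they were 104, 130, 2533 and 2624 in the same order, against 788 and for epithelium-rich against other spots they ran from 436 to 4188 over the alternatives.

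The level in DES epithelial cells moved from 134.2 CPM to 127.8 in cells with a UMI of Epcam, Krt18 and Cdh1, 131.2 as a mean over cells, 168.4 with the 20 most abundant genes left out of the totals and 137.4 without the deepest 5% of cells. Cluster 0 moved from 433.9 to 543.7 and 421.4 CPM under the last 2 of these. The share of DES epithelial cells with a Crh UMI was 24.1% at 5000 UMIs and 41.9% without thinning. Of the 15 genes most like Crh, 10 to 14 stayed among the first 15 under the 5 alternatives. With 1 library for each treatment and 2 sections, precision between mice is limited by their number.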
